A study of Homo sapiens with 4 samples.

Results

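Collagens, laminins and basement membrane genes were compared between GFP-positive and GFP-negative cells derived from H1, a widely used human embryonic stem cell line. The genes were chosen by symbol, with earlier results of these data known. Every collagen chain (COL, a number, A, a number) and every laminin chain (LAMA, LAMB or LAMC and a number) was taken. To these were added NID1, NID2, HSPG2, AGRN, FN1, SPARC, FBLN1, FBN1 and ELN. This gave 64 of the 28285 gene rows, each symbol with 1 row. All cells carried a GATA2/eGFP knockin, in which the green reporter marks cells that use GATA2, a zinc-finger regulator needed in blood progenitors. The GFP-positive cells were eGFP+, CD34+, CD31+ and CD43- and are labelled hemogenic endothelium, the endothelium that gives rise to blood. The GFP-negative cells were eGFP-, CD34+, CD31+ and CD43- and are labelled endothelial cells by cell type, although their source names read hemogenic endothelium and their titles carry its initials, HE, as those of the GFP-positive cells do. Cre stands in the title of each sample with no role stated, and the labels give no day of differentiation. Each fraction had 2 libraries. An SD is over the 2 libraries of a fraction, and a standard error (SE) is that of the log2 fold change fitted by limma to all 4. Nothing in the labels gives separate cultures for the libraries. The p-values therefore measure the spread between these libraries alone, and that spread may be technical.

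Endothelial cells lie on a basement membrane, a sheet of type IV collagen and laminin networks that nidogens and the heparan sulfate proteoglycan perlecan link together. Collagen chains assemble in trimers and laminins as an alpha, a beta and a gamma chain, so the transcripts of several genes are needed for 1 protein. Fibrillar collagens, fibronectin and elastic fibres form the interstitial matrix outside that sheet. Endothelial basement membranes are known for laminins with the alpha chains of LAMA4 and LAMA5, for perlecan and for type IV collagen.

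Levels are in TPM, a unit in which reads are corrected for transcript length and for the library total. The depth behind a value is therefore unknown. The 64 genes together held 0.662% and 0.730% of TPM in the GFP-positive libraries, against 0.766% and 0.810% in the GFP-negative libraries. Both fractions expressed defining endothelial genes. CDH5, the gene of VE-cadherin, had 329 and 314 TPM in GFP-positive cells, against 767 and 623 TPM in GFP-negative cells. All 10 endothelial markers examined lay lower in both GFP-positive libraries, as did 21.5% of all genes tested. Their summed level was 2004 to 2133 TPM in GFP-positive cells, against 3419 to 3832 TPM in GFP-negative cells. Of the 10 markers, 0 passed the test described next. In bulk samples such as these, fewer cells of a type and less RNA per cell cannot be told apart.

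No member passed the test over all genes. Of the 64, 48 reached 1 TPM in 2 or more libraries and were tested with limma on log2(TPM + 1). None had a Benjamini-Hochberg adjusted p under 0.05, a threshold passed by 0.447% of the 15425 genes tested (0.123% higher and 0.324% lower in GFP-positive cells). Without adjustment, 17 of the 48 had a limma p under 0.05, or 35.4%, against 14.1% of all genes tested. Of these, 12 were lower in GFP-positive cells (25% of the 48, against 7.38% of all genes) and 5 were higher (10.4%, against 6.69%). Libraries of the fractions did not overlap for 23 members (47.9%, against 44.3% of all genes), 16 of them lower (33.3%, against 21.5%) and 7 higher (14.6%, against 22.8%) in GFP-positive cells. LAMA4, counted among the 12 and among the 16, was tested through the GFP-negative libraries alone. The log2 fold change was below 0 for 27 of the 48 (56.2%, against 48.2% of all genes). The median was -0.08, against 0.02 over all genes tested, while the middle 50% of members ran from -0.54 to 0.41, against -0.32 to 0.33 for all genes. The members therefore spread to both sides around a median close to 0, and the account below is by role.

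**Figure D1:**
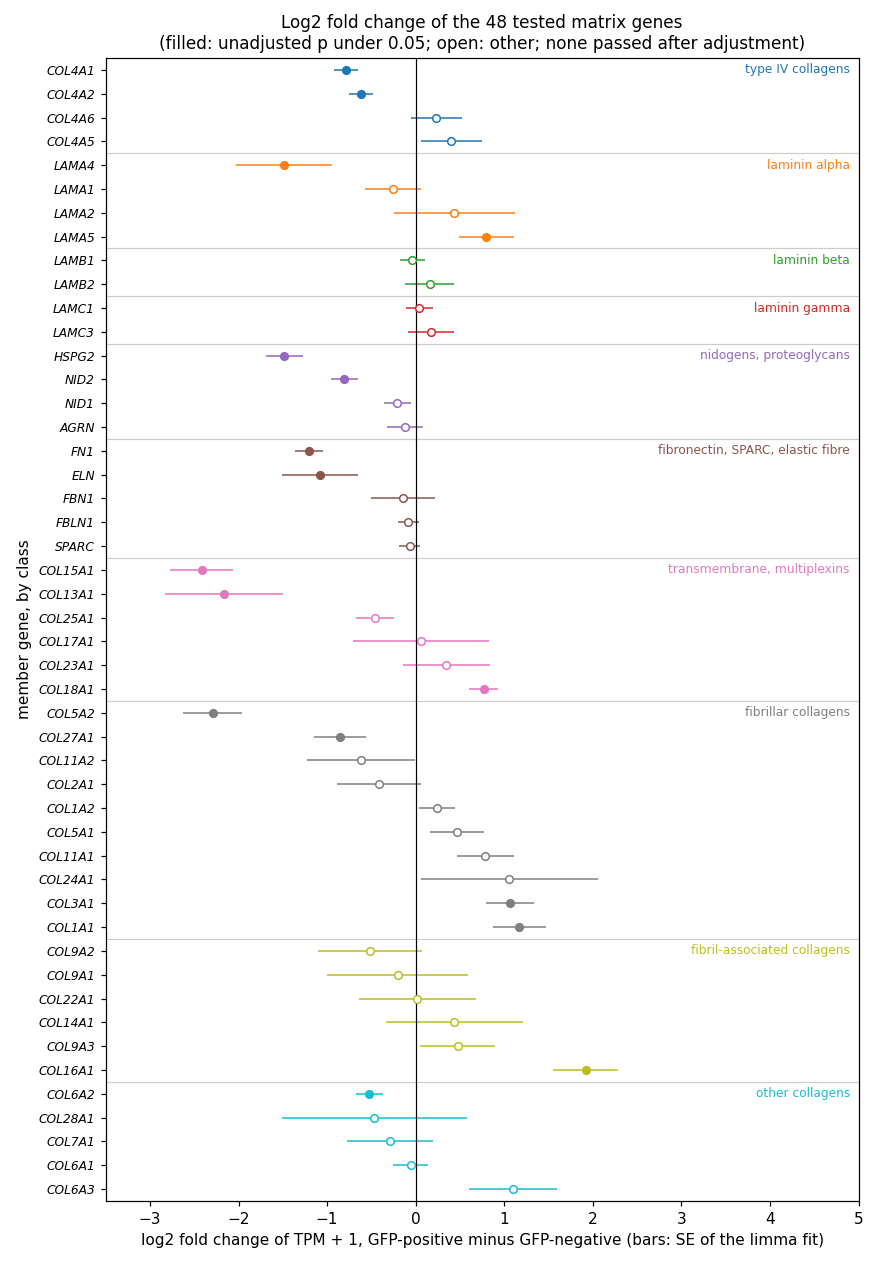
Log2 fold change on the log2(TPM + 1) scale (GFP-positive minus GFP-negative, x axis) of the 48 tested matrix genes (rows, grouped by class), with the SE of the limma fit as bars. Values run from -2.41 for COL15A1 to 1.92 for COL16A1, filled points have an unadjusted p under 0.05, and no gene passed after adjustment.

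Members close to the threshold were mostly lower in GFP-positive cells. FN1 stood at place 77 in the order of all p-values, with 69 genes called. With the genes limited to a mean above 5 TPM, 5 of 37 tested members passed, against 164 of 11823 genes. These were FN1, HSPG2, COL4A1, COL5A2 and COL15A1, all lower. With libraries scaled to a common upper quartile, 4 of these 5, without COL4A1, passed (of 48 tested, against 128 of 15433 genes). With the replicate number as a block, 596 of 15425 genes passed, the same 5 among them. NID2, COL4A2 and COL13A1, lower, and COL16A1, COL1A1, COL3A1 and COL18A1, higher, passed there too. Over 12 alternative settings, the limma adjusted p ran from 0.00159 to 0.196 for FN1, from 0.00281 to 0.193 for HSPG2, from 0.006 to 0.292 for COL4A1, from 0.00281 to 0.203 for COL5A2 and from 0.00782 to 0.247 for COL15A1. All 5 kept a negative log2 fold change in each of the 12. Fits that leave out a library have 1 library in a fraction, which is assumed to vary like the other fraction, whose pair alone gives the spread.

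Type IV collagen forms the network of every basement membrane, and its alpha1 and alpha2 chains, encoded by COL4A1 and COL4A2, are the ubiquitous ones. COL4A1 had 470 and 552 TPM in GFP-positive cells, against 886 and 871 TPM in GFP-negative cells. COL4A2 had 555 and 678 TPM in GFP-positive cells, against 951 and 931 TPM in GFP-negative cells. For both genes each GFP-positive library lay below each GFP-negative library. The difference was 1.72-fold for COL4A1 (log2 fold change -0.79 ± 0.13, SE; limma adjusted p = 0.077). It was 1.53-fold for COL4A2 (-0.62 ± 0.14; limma adjusted p = 0.14), and neither passed. The ratio of COL4A1 to COL4A2 within a library was 0.847 and 0.814 in GFP-positive cells, against 0.931 and 0.936 in GFP-negative cells.

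These genes lie head to head on chromosome 13. In RefSeq (GRCh38.p14) their starts are 127 bp apart, and the window of 250 bases before and 50 after the start of COL4A2 also holds the start of COL4A1. In GENCODE v29 on GRCh38, COL4A1 (ENSG00000187498; 110148963 to 110307233, minus strand) and COL4A2 (ENSG00000134871; 110305812 to 110513209, plus strand) have a gap of -1422 bp, which is an overlap of their 5′ ends. Whether the authors' gene models also overlap is not known, and the labels do not say whether counting used strand. If they do overlap, reads from that stretch may not have been assigned with certainty. The COL4A2 window is shown because it holds the starts of both genes, each lower in both GFP-positive libraries. Those of FN1 and HSPG2 are shown because these had the smallest p-values of all members. RefSeq windows matched 47 of the 64 members (61 windows, GRCh38.p14). Capitals mark matches, on either strand, to CCAAT, the letters of the CCAAT box, and to GGGCGG, the letters of the GC box, whose matches may overlap each other; sequences run 5′ to 3′ along the gene's strand.
COL4A2, chr13:110307034-110307333, plus strand: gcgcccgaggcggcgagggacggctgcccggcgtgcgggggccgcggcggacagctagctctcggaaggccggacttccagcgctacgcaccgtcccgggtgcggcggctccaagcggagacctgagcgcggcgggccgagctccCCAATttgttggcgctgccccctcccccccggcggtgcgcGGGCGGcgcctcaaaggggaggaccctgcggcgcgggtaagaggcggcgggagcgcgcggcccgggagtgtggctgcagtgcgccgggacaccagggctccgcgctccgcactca
FN1, chr2:215436019-215436318, minus strand: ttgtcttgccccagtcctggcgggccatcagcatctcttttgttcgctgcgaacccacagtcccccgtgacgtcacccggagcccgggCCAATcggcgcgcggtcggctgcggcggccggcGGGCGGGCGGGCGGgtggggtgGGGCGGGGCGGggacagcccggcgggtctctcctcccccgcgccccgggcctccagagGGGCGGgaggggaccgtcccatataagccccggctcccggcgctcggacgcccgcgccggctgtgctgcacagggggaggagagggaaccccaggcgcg
HSPG2, chr1:21937261-21937560, minus strand: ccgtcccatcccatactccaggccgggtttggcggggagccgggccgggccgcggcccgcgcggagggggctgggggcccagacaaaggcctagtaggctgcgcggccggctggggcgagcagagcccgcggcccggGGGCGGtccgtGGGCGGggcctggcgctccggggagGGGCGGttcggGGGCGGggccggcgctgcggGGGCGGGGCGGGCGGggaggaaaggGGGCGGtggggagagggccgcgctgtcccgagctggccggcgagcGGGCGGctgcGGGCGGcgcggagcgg

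The window of COL4A2 held 1 CCAAT and 1 GGGCGG. That of FN1 held 1 CCAAT and 6 GGGCGG, and that of HSPG2 held 0 CCAAT and 10 GGGCGG. Of all 35116 windows of this length, 34.6% held CCAAT and 45.0% held GGGCGG, against 31.1% and 60.7% of the 61 windows of members. GATAA, the core letters of a GATA site read on both strands, was in none of the windows printed, in 8 of the 61 windows of members (13.1%) and in 22.7% of all windows. These counts describe letters only.

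The other chains of type IV collagen had overlapping libraries or lay near 0. COL4A5 and COL4A6, which also lie head to head, 346 bp apart on chromosome X, encode chains of more restricted basement membranes. COL4A5 had 51.1 and 69.7 TPM in GFP-positive cells, against 32.7 and 61.5 TPM in GFP-negative cells. COL4A6 had 24.6 and 35.5 TPM in GFP-positive cells, against 22.9 and 27.3 TPM in GFP-negative cells. Libraries overlapped for both, and the log2 fold changes were 0.40 ± 0.34 and 0.23 ± 0.29 (limma adjusted p = 0.675 and 0.795). COL4A3 and COL4A4, the chains of kidney and other specialised membranes, stood at 0 in each GFP-positive library and reached at most 0.91 and 0.07 TPM in a GFP-negative library. Summed over the class, type IV collagens had 1101 and 1335 TPM in GFP-positive cells, against 1894 and 1891 TPM in GFP-negative cells.

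**Figure D2:**
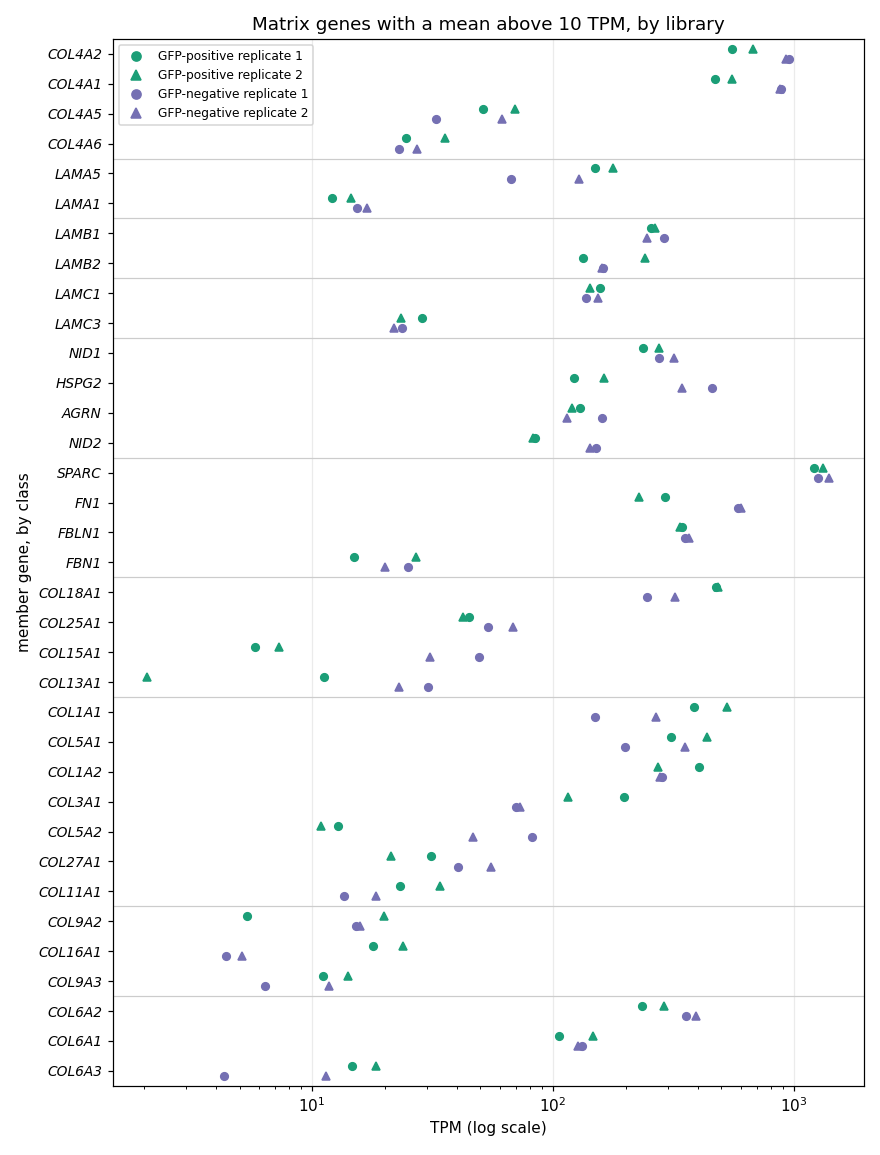
TPM on a log scale (x axis) of the 35 matrix genes with a mean above 10 TPM (rows, grouped by class), with 1 point per library. SPARC was the most abundant at 1217 to 1403 TPM, COL4A1, COL4A2, FN1 and HSPG2 lay lower in both GFP-positive libraries, and COL18A1 and COL1A1 lay higher in both.

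The leading beta and gamma chains of laminin had overlapping libraries. The alpha chains, which carry the main sites for cell surface receptors, differed in order. LAMA5 lay higher in both GFP-positive libraries, while LAMA1 and LAMA4 lay lower in both, LAMA4 with at most 4.06 TPM in any library. LAMB1 had 256 and 265 TPM in GFP-positive cells, against 290.1 and 246 TPM in GFP-negative cells. LAMC1, the common gamma chain, had 157 and 143 TPM in GFP-positive cells, against 137 and 154 TPM in GFP-negative cells. The log2 fold changes were -0.04 ± 0.14 and 0.04 ± 0.15 (limma adjusted p = 0.947 and 0.942), and libraries overlapped for both. LAMB2, the beta chain of mature vessel and kidney basement membranes, had 133 and 241 TPM in GFP-positive cells, against 162 and 159 TPM in GFP-negative cells. LAMC3, a gamma chain, had 28.5 and 23.4 TPM in GFP-positive cells, against 23.6 and 22.0 TPM in GFP-negative cells. These overlapped as well.

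LAMA5, an alpha chain common in vessels and in embryonic stem cells, was the leading alpha chain in both fractions. It had 149 and 177 TPM in GFP-positive cells, against 66.9 and 129 TPM in GFP-negative cells, without overlap (log2 fold change 0.80 ± 0.31, SE; limma adjusted p = 0.335). LAMA4, known as a typical alpha chain of endothelial basement membranes, had 0.57 and 0.34 TPM in GFP-positive cells, against 2.25 and 4.06 TPM in GFP-negative cells (-1.48 ± 0.54; limma adjusted p = 0.305). LAMA4 reached 1 TPM in no GFP-positive library and was tested through the GFP-negative libraries alone, the only member of which this was true. The ratio of LAMA4 to LAMA5 was 0.00383 and 0.00192 in GFP-positive cells, against 0.0336 and 0.0316 in GFP-negative cells. LAMA5 transcripts therefore exceeded those of LAMA4 in each library. LAMA2, the alpha chain of muscle basement membrane, had 2.70 and 0.39 TPM in GFP-positive cells, against 1.05 and 0.37 TPM in GFP-negative cells (0.44 ± 0.68; limma adjusted p = 0.852). LAMA1, an early embryonic chain, had 12.2 and 14.6 TPM in GFP-positive cells, against 15.3 and 16.8 TPM in GFP-negative cells (-0.25 ± 0.31; limma adjusted p = 0.796).

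Among the molecules that link the networks, HSPG2 and NID2 had less in GFP-positive cells and NID1 and AGRN overlapped. HSPG2 (ENSG00000142798), the gene of perlecan, had 122 and 163 TPM in GFP-positive cells, against 458 and 343 TPM in GFP-negative cells. This was a 2.81-fold lower mean in GFP-positive cells (log2 fold change -1.48 ± 0.21, SE; limma adjusted p = 0.058). Its limma adjusted p was 0.0451 when GFP-negative replicate 2 was left out, and 0.0501 to 0.146 in the other 3 fits without a library. NID2, the gene of nidogen 2, had 84.1 and 82.6 TPM in GFP-positive cells, against 151 and 142 TPM in GFP-negative cells (-0.81 ± 0.15; limma adjusted p = 0.0983). Its paralogue NID1 had 237 and 277 TPM in GFP-positive cells, against 276 and 318 TPM in GFP-negative cells (-0.21 ± 0.15; limma adjusted p = 0.616). AGRN, the gene of the heparan sulfate proteoglycan agrin, had 129.6 and 120.05 TPM in GFP-positive cells, against 160.2 and 115 TPM in GFP-negative cells (-0.12 ± 0.20; limma adjusted p = 0.869).

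FN1 (ENSG00000115414), the gene of fibronectin, a glycoprotein that binds integrins and collagens, had the smallest adjusted p of all members. It had 293 and 227 TPM in GFP-positive cells, against 588 and 603 TPM in GFP-negative cells. The GFP-positive mean was 2.29-fold lower (259.8 ± 46.6 TPM in GFP-positive cells, against 596 ± 10.1 TPM in GFP-negative cells, SD, n = 2 each; log2 fold change -1.21 ± 0.16, SE; limma adjusted p = 0.0519). Its limma adjusted p was 0.0375 when GFP-positive replicate 1 was left out, and 0.0763 to 0.128 in the other 3 fits without a library. SPARC, which encodes a collagen-binding glycoprotein, was the most abundant member and had 1217 and 1314 TPM in GFP-positive cells, against 1253 and 1403 TPM in GFP-negative cells. Its libraries overlapped (-0.07 ± 0.12; limma adjusted p = 0.876). FBLN1, the gene of fibulin 1, had 343 and 336 TPM in GFP-positive cells, against 352 and 367 TPM in GFP-negative cells; the libraries did not overlap, but the log2 fold change was -0.08 ± 0.12 (limma adjusted p = 0.843). FBN1, the gene of fibrillin 1, the backbone of microfibrils, had 14.9 and 27.1 TPM in GFP-positive cells, against 24.9 and 20.1 TPM in GFP-negative cells. ELN, the gene of elastin, had 4.42 and 7.38 TPM in GFP-positive cells, against 16.0 and 10.97 TPM in GFP-negative cells (-1.08 ± 0.43; limma adjusted p = 0.341).

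The 10 endothelial markers, like COL4A1, COL4A2, HSPG2, NID2 and FN1 but unlike LAMA5, were lower in both GFP-positive libraries. Their median log2 fold change was -1.06. Of all genes tested, 21.5% lay lower in both. The 16 tested genes of type IV collagen, laminins, nidogens and proteoglycans had 7 log2 fold changes above 0 and 9 below. CLDN5, the gene of a tight junction protein, was the one listed at 0 in a library (1.09 and 0 TPM in GFP-positive cells, against 7.46 and 5.36 TPM in GFP-negative cells). Of 8 markers of parietal or visceral endoderm, cells that secrete much basement membrane, 7 were tested, 1 fell and 6 did not pass. Of the 7, 6 had a log2 fold change below 0 and 1 above, with a median of -1.41. APOA1 had 8.42 and 7.41 TPM in GFP-positive cells, against 38.0 and 63.6 TPM in GFP-negative cells (limma adjusted p = 0.0541). The gene that fell was SOX7, also an endothelial gene, which had 71.5 and 72.5 TPM in GFP-positive cells, against 202 and 184 TPM in GFP-negative cells (limma adjusted p = 0.0391). SOX7 made up most of the list's summed level, 89.4 to 92.3 TPM in GFP-positive cells, against 289.8 to 290.4 TPM in GFP-negative cells, and TTR, a liver and visceral endoderm gene, lay the other way (6.14 and 6.18 TPM in GFP-positive cells, against 3.06 and 4.66 TPM in GFP-negative cells). The part of these cell types in the lower COL4A1, COL4A2, HSPG2, NID2 and FN1 levels was not tested.

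COL15A1 and COL18A1 encode the multiplexins, a pair of related collagens of the basement membrane zone that carry heparan sulfate or chondroitin sulfate chains, and their levels stood in opposite orders. COL15A1 had 5.81 and 7.31 TPM in GFP-positive cells, against 49.5 and 30.8 TPM in GFP-negative cells, a 6.12-fold lower mean (log2 fold change -2.41 ± 0.36, SE; limma adjusted p = 0.0604). COL18A1, whose protein is the source of the fragment endostatin, had 477 and 483 TPM in GFP-positive cells, against 247 and 321 TPM in GFP-negative cells, a 1.69-fold higher mean (0.77 ± 0.16; limma adjusted p = 0.12). Neither passed, and neither overlapped. The ratio of COL18A1 to COL15A1, chosen after the values were seen, was 82.0 and 66.1 in GFP-positive cells, against 4.98 and 10.4 in GFP-negative cells.

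Transmembrane collagens, which span the cell membrane, were present at lower levels than COL18A1. COL13A1 had 11.2 and 2.06 TPM in GFP-positive cells, against 30.3 and 23.0 TPM in GFP-negative cells (log2 fold change -2.16 ± 0.67, SE; limma adjusted p = 0.241). COL25A1 had 44.9 and 42.5 TPM in GFP-positive cells, against 53.7 and 68.0 TPM in GFP-negative cells (-0.46 ± 0.21; limma adjusted p = 0.406). COL17A1 and COL23A1 had between 0 and 6.83 TPM in each library and overlapped.

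Fibrillar collagens form the cross-banded fibrils of interstitial tissue. Summed, they had 1363 and 1434 TPM in GFP-positive cells, against 845 and 1105 TPM in GFP-negative cells, the opposite order to type IV collagens. COL1A1, the alpha1 chain of type I collagen, had 385 and 528 TPM in GFP-positive cells, against 149 and 268 TPM in GFP-negative cells. The mean was 2.19-fold higher (log2 fold change 1.17 ± 0.30, SE; limma adjusted p = 0.176). Its limma adjusted p was 0.0484 when GFP-negative replicate 2, the higher of the pair, was left out, and 0.144 to 0.365 in the other 3 fits without a library; it ran from 0.00214 to 0.365 over the 12 alternatives. COL1A2, which supplies the other chain of the same trimer, had 402 and 273 TPM in GFP-positive cells, against 284 and 278 TPM in GFP-negative cells (0.24 ± 0.20; limma adjusted p = 0.679). The ratio of COL1A1 to COL1A2 was 0.956 and 1.94 in GFP-positive cells, against 0.525 and 0.964 in GFP-negative cells, and so overlapped.

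COL3A1 and COL5A2 are neighbours on chromosome 2, tail to tail with 19.1 kb between them in GENCODE v29, and stood in opposite orders. COL3A1, the chain of type III collagen, had 196 and 115 TPM in GFP-positive cells, against 69.9 and 72.8 TPM in GFP-negative cells (log2 fold change 1.06 ± 0.27, SE; limma adjusted p = 0.171). COL5A2, a chain of the type V collagen that initiates fibrils, had 12.9 and 10.8 TPM in GFP-positive cells, against 82.1 and 46.5 TPM in GFP-negative cells. Its mean was 5.42-fold lower (-2.29 ± 0.34; limma adjusted p = 0.06). The limma adjusted p of COL5A2 was 0.0455 when GFP-negative replicate 2 was left out, and 0.0717 to 0.203 in the other 3 fits without a library. COL5A1, the main partner of COL5A2 in type V collagen, had 308 and 437 TPM in GFP-positive cells, against 199.6 and 354 TPM in GFP-negative cells (0.46 ± 0.30; limma adjusted p = 0.564). The ratio of COL5A1 to COL5A2, also chosen after the values were seen, was 23.9 and 40.3 in GFP-positive cells, against 2.43 and 7.61 in GFP-negative cells.

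The remaining tested fibrillar collagens had lower means over all libraries, although COL27A1 and COL11A1 exceeded COL5A2 in both GFP-positive libraries. COL27A1 had 31.1 and 21.2 TPM in GFP-positive cells, against 40.2 and 55.5 TPM in GFP-negative cells (log2 fold change -0.85 ± 0.29, SE; limma adjusted p = 0.281). COL11A1, a cartilage-type chain related to COL5A1, had 23.1 and 33.9 TPM in GFP-positive cells, against 13.6 and 18.4 TPM in GFP-negative cells (0.79 ± 0.32; limma adjusted p = 0.358). COL2A1, COL11A2 and COL24A1 had between 0.17 and 9.95 TPM in each library, and limma adjusted p-values of 0.713 to 0.777. The class therefore held members on both sides, 6 above 0 and 4 below, with a median log2 fold change of 0.35.

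**Figure D3:**
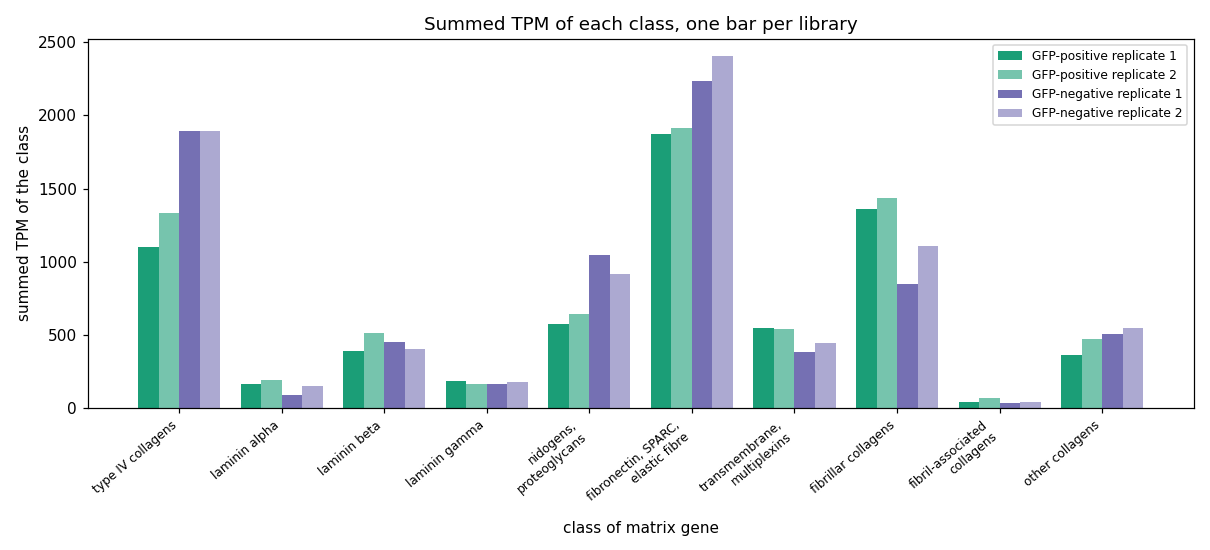
Summed TPM (y axis, from 0) of each class of matrix gene (x axis), with 1 bar per library. Type IV collagens and the class of nidogens, HSPG2 and AGRN were lower in both GFP-positive libraries. So were the class of FN1, SPARC and elastic fibre genes and the other collagens (short-chain, beaded-filament and anchoring). Fibrillar collagens were higher in both, at 1363 and 1434 TPM in GFP-positive cells, against 845 and 1105 TPM in GFP-negative cells. Laminin alpha chains, transmembrane collagens with multiplexins, and fibril-associated collagens were also higher in both. Most of the laminin alpha sum came from LAMA5, while LAMA1 and LAMA4 lay lower in both GFP-positive libraries. COL18A1 gave most of the multiplexin class sum, while COL15A1, COL13A1 and COL25A1 lay lower in both. The fibril-associated sums were close, with 38.97 TPM in GFP-positive replicate 1, against 37.8 TPM in GFP-negative replicate 2. Laminin beta and gamma chains overlapped.

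Genes that mark cells rich in fibrillar collagen were examined beside these values. Of 10 fibroblast or mesenchymal markers, 7 were tested and 0 passed; DPT and TWIST2 were listed at 0 in all 4 libraries, and DCN and LUM reached at most 3.16 and 7.12 TPM. Their summed level was 185 to 319 TPM in GFP-positive cells, against 447 to 590 TPM in GFP-negative cells, and THY1 alone had 162 to 284 TPM in GFP-positive cells, against 419 to 571 TPM in GFP-negative cells. Of the 7 tested, 5 had a log2 fold change above 0, with a median of 0.37, opposite in sign to the difference in the sum. Of 10 smooth muscle or pericyte markers, 9 were tested and 0 passed, with 6 above 0 and 3 below, and KCNJ8 was listed at 0 in all libraries. Their summed level was 2260 to 2265 TPM in GFP-positive cells, against 1598 to 1662 TPM in GFP-negative cells, mostly from RGS5 and TAGLN. RGS5 had 1227 and 1160 TPM in GFP-positive cells, against 1046 and 975 TPM in GFP-negative cells. TAGLN, an actin-binding protein gene of smooth muscle, had 802 and 865 TPM in GFP-positive cells, against 396 and 547 TPM in GFP-negative cells. MYH11 lay the other way, at 1.09 and 0.91 TPM in GFP-positive cells, against 1.24 and 3.48 TPM in GFP-negative cells. Of 8 epithelial markers, 7 were tested and 0 passed, with a summed level of 1498 to 1764 TPM in GFP-positive cells, against 958 to 1143 TPM in GFP-negative cells, mostly from KRT8, KRT18 and KRT19. CLDN7 and CDH1 of the same list lay the other way, CLDN7 at 28.0 and 12.8 TPM in GFP-positive cells, against 73.8 and 67.8 TPM in GFP-negative cells, and CDH1 at 1.92 and 1.38 TPM in GFP-positive cells, against 5.15 and 2.91 TPM in GFP-negative cells. Blood markers summed to 674 to 709.95 TPM in GFP-positive cells, against 527 to 550 TPM in GFP-negative cells, and markers of undifferentiated stem cells to 584 to 709.95 TPM in GFP-positive cells, against 475 to 505 TPM in GFP-negative cells, with 0 of 10 and 0 of 7 tested passing. The blood sum came mostly from LAPTM5 (466 and 418 TPM in GFP-positive cells, against 407 and 382 TPM in GFP-negative cells). Of the 10 blood markers, 7 had a log2 fold change above 0 and 3 below. LCP1 lay the other way, at 2.82 and 3.88 TPM in GFP-positive cells, against 5.68 and 5.60 TPM in GFP-negative cells. The stem cell sum came mostly from LIN28A (477 and 386 TPM in GFP-positive cells, against 304 and 287 TPM in GFP-negative cells). Of the 7 stem cell markers tested, 4 lay below 0. POU5F1, a defining gene of those cells, had 0.93 and 0.03 TPM in GFP-positive cells, against 9.68 and 5.88 TPM in GFP-negative cells (limma adjusted p = 0.131). Both fractions were sorted as CD34+, CD31+ and CD43-, and how many cells of these other types remained was not tested. The part of such cells in the COL1A1, COL3A1 and COL18A1 levels was not tested.

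Collagens that sit on fibrils were low, and COL16A1 stood apart from the rest of them. COL16A1 had 18.0 and 23.9 TPM in GFP-positive cells, against 4.41 and 5.11 TPM in GFP-negative cells. This was a 4.40-fold higher mean and the largest positive log2 fold change of the members (1.92 ± 0.37, SE; limma adjusted p = 0.103). COL9A2 and COL9A3, chains of the type IX collagen of cartilage, were lower in log2 fold change than COL16A1 and overlapped. COL9A2 had 5.36 and 20.0 TPM in GFP-positive cells, against 15.2 and 15.8 TPM in GFP-negative cells. COL9A3 had 11.1 and 14.0 TPM in GFP-positive cells, against 6.36 and 11.7 TPM in GFP-negative cells. COL14A1 had 1.35 and 8.60 TPM in GFP-positive cells, against 1.72 and 3.52 TPM in GFP-negative cells. It overlapped too. COL9A1 and COL22A1, also tested, had between 0 and 2.13 TPM in each library.

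Type VI collagen, a beaded filament next to basement membranes, is a trimer of unlike chains, and its 3 main genes differed in order. COL6A1 had 106 and 146 TPM in GFP-positive cells, against 132 and 127 TPM in GFP-negative cells (log2 fold change -0.06 ± 0.20, SE; limma adjusted p = 0.938). COL6A2 had 234 and 290.0 TPM in GFP-positive cells, against 358 and 392 TPM in GFP-negative cells, without overlap (-0.52 ± 0.16; limma adjusted p = 0.228). COL6A3 had 14.6 and 18.5 TPM in GFP-positive cells, against 4.32 and 11.4 TPM in GFP-negative cells, also without overlap (1.10 ± 0.50; limma adjusted p = 0.399). The ratio of COL6A1 to COL6A2, 93.0 kb apart on chromosome 21, was 0.453 and 0.503 in GFP-positive cells, against 0.369 and 0.324 in GFP-negative cells. COL7A1, the chain of anchoring fibrils, and COL28A1 had between 0 and 10.8 TPM in each library and overlapped.

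**Figure D4:**
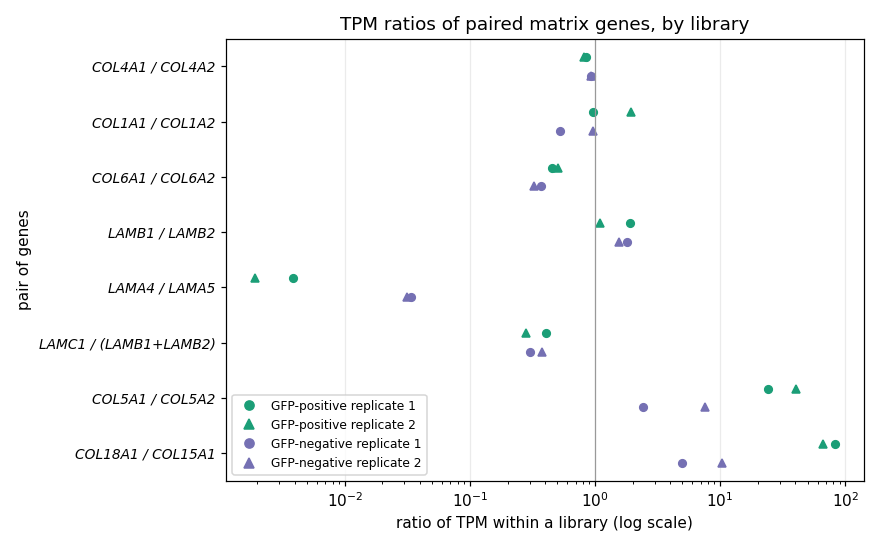
Ratio of TPM within a library on a log scale (x axis) for 8 pairs of matrix genes (rows), with 1 point per library. GFP-positive and GFP-negative libraries did not overlap for COL4A1/COL4A2, COL6A1/COL6A2, LAMA4/LAMA5, COL5A1/COL5A2 and COL18A1/COL15A1, the last 2 of which were chosen after their values were seen. LAMA4 had at most 4.06 TPM in any library.

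The ratio of LAMC1 to the sum of LAMB1 and LAMB2 was 0.403 and 0.283 in GFP-positive cells, against 0.304 and 0.380 in GFP-negative cells. The ratio of LAMB1 to LAMB2 was 1.92 and 1.10 in GFP-positive cells, against 1.79 and 1.55 in GFP-negative cells. Both overlapped. With 2 libraries in each fraction, an exact permutation test of a ratio cannot give a two-sided p below 0.333, so no ratio was tested.

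The 16 members that were not tested had at most 3.04 TPM in any library. Among them were COL5A3, COL4A3, COL4A4, COL6A5, COL6A6, COL8A1, COL8A2, COL10A1, COL12A1, COL19A1, COL20A1, COL21A1, LAMA3, LAMB3 and LAMB4. LAMA3 and LAMB3, chains of epithelial laminins, had at most 0.51 and 3.04 TPM. COL8A1 and COL8A2, the short-chain collagens of vessel walls and Descemet's membrane, had at most 0.97 and 0.14 TPM. Among the tested members, 5 reached 1 TPM in exactly 2 libraries, and 4 of those not tested reached it in 1.

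Genes that make, bind or accompany these proteins were read from the same fit. Of 24 tested genes of collagen synthesis and crosslinking, 0 passed, with a median log2 fold change of -0.04. P4HB, a subunit of the prolyl 4-hydroxylase that stabilises the collagen helix, had 1603 and 2351 TPM in GFP-positive cells, against 1668 and 2318 TPM in GFP-negative cells, and PPIB, a prolyl isomerase of collagen folding, had 930 and 1609 TPM in GFP-positive cells, against 1021 and 1594 TPM in GFP-negative cells. Both overlapped. Of 25 tested matrix receptor genes, 0 passed, with a median of 0.05. ITGB1, the beta chain of most collagen and laminin receptors, had 1010 and 1083 TPM in GFP-positive cells, against 914 and 1182 TPM in GFP-negative cells, and CD44, a receptor for hyaluronan, had 484 and 564 TPM in GFP-positive cells, against 377 and 429 TPM in GFP-negative cells (limma adjusted p = 0.327).

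Of 34 other tested matrix genes, 1 fell, 0 rose and 33 did not pass, with a median log2 fold change of 0.02. The gene that fell was MMRN2, which encodes multimerin 2, a glycoprotein of the endothelial matrix. It had 134 and 148 TPM in GFP-positive cells, against 341 and 339 TPM in GFP-negative cells (log2 fold change -1.27 ± 0.14, SE; limma adjusted p = 0.0391). Leaving out a GFP-positive library gave MMRN2 a limma adjusted p of 0.0574 (replicate 1) or 0.0501 (replicate 2), and leaving out a GFP-negative library gave 0.117 (replicate 1) or 0.0699 (replicate 2). Over the 12 alternatives it ran from 0.00153 to 0.172. EGFL7, a secreted endothelial protein gene, had 1641 and 1681 TPM in GFP-positive cells, against 2181 and 2123 TPM in GFP-negative cells (-0.37 ± 0.11; limma adjusted p = 0.214). BGN, the gene of the small proteoglycan biglycan, had 234 and 217 TPM in GFP-positive cells, against 303 and 236 TPM in GFP-negative cells (-0.25 ± 0.17; limma adjusted p = 0.58).

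The median absolute difference between replicates on the log2(TPM + 1) scale was 0.41 for the 48 tested members in GFP-positive cells and 0.38 in GFP-negative cells, against 0.36 and 0.31 for all genes tested. The median absolute log2 fold change between the fractions was 0.46 for members and 0.33 for all genes.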

How the data were processed

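RNA sequencing libraries of 2 GFP-positive and 2 GFP-negative samples were analysed, grouped by sample title. RNA was taken with Trizol and libraries were made with an Illumina TruSeq kit, per the labels' protocols. The deposited tables, 1 per library, hold TPM values; the unit was read from the column sums, 996324 to 997293, and from RSEM, which the submitters' processing notes name with Bowtie, without versions. The notes also name the builds hg19 and mm10 without roles. Whether mouse cells or reads were present is not stated, so a part of mouse reads in the levels was not tested. Annotation and strand use are not given in these sources. The members and gene lists were chosen with earlier results of these data known.

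Limma 3.58.1 in R 4.3.3 was fitted on log2(TPM + 1) with a variance trend to 15425 genes that reached 1 TPM in 2 or more libraries, two-sided, with Benjamini-Hochberg adjustment at 0.05. Folds are ratios of mean TPM; log2 fold changes understate changes of low genes. Genes named are FN1, HSPG2, the 4 most abundant tested members of each class, the 3 largest log2 fold changes each way, and of each other list the 2 most abundant and any called; further members were named after their values were seen. VTN and P3H3 are not analysed here. The values of 1 untested member are not reported here. Gene coordinates were matched by identifier to GENCODE v29 and are not those of the authors' build. Alternatives were pseudocounts of 0.1 and 0.5, no filter, a mean above 5 TPM, upper quartile and median of ratios scaling, no variance trend, a replicate block and each library left out, with the filter applied again.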

Additional observations from a re-analysis of the deposited data

How the results depend on the processing

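With 2 libraries per fraction and TPM without depth, calls near the threshold moved with the setting, and a p that misses it does not show equal levels. Limma called 19 genes higher and 50 lower in GFP-positive cells in the fit reported, and 0 higher and 0 lower with a pseudocount of 0.1 (2101 genes at an unadjusted p under 0.05), without a filter (2230) or without a variance trend (2072). It called 50 higher and 114 lower with a mean above 5 TPM, and 30 higher and 98 lower with upper quartile scaling; with a library left out it called 10 to 36 higher and 1 to 48 lower. Of the members, 0 were called lower in the fit reported, 5 with a mean above 5 TPM, 4 with upper quartile scaling and 0 to 2 with a library left out; 0 to 1 were called higher with a library left out. Fewer genes are tested with the higher mean (11823); the cause of the other changes was not tested. The members' median log2 fold change ran from -0.20 to 0.0084 with a library left out. The log2 ratio of summed member TPM was -0.18, and -0.27 with upper quartile scaling and -0.25 to -0.11 with a library left out.

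Whether the replicate numbers pair the samples cannot be settled with 2 numbers only (correlation of deviations 0.072 across the genes tested). With the replicate block, limma called 228 genes higher and 368 lower, and 4 members higher and 8 lower.

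Values close to 0 or with wide replicates changed sign under some settings. LAMC1 was -0.043 with upper quartile scaling and -0.038 to 0.12 with a library left out, and ITGB1 was -0.077 with upper quartile scaling, -0.015 with median of ratios scaling and -0.18 to 0.19 with a library left out. With a library left out, log2 fold changes ran from -1.37 to 0.35 for COL9A2, -0.043 to 0.52 for COL1A2, -0.56 to 0.27 for FBN1, -0.29 to 0.17 for COL6A1, -0.75 to 0.17 for COL7A1, -0.58 to 1.45 for COL14A1, -0.27 to 0.58 for LAMB2, -0.16 to 0.081 for LAMB1, -0.36 to 0.12 for AGRN, -0.022 to 0.49 for COL4A6, -0.044 to 0.85 for COL4A5, -0.15 to 0.013 for SPARC, -0.29 to 0.26 for P4HB and -0.45 to 0.33 for PPIB. The cause was not tested.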
